A study of Homo sapiens with 20 samples.

Results

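RKO is a human colorectal adenocarcinoma cell line that served as the tankyrase inhibitor (TNKSi)-insensitive control, and its RNA at baseline was set beside that of the 4 TNKSi-sensitive lines COLO 320DM (COLO320DM in the labels, colorectal adenocarcinoma), OVCAR-4 (high grade serous ovarian adenocarcinoma), ABC-1 (lung adenocarcinoma) and UO-31 (renal cell carcinoma). The comparison used the libraries of cells kept for 24 h in 0.01% DMSO, the vehicle, which are 2 of RKO and 8 of the other lines (2 each) out of 20 in all. The other 10 libraries came from the same lines after 24 h in 1 µM G007-LK, an inhibitor of tankyrase 1 and 2, and served only to measure the line differences again. All are established lines without an engineered change, and the labels call the 2 libraries of a group biological replicates without naming separate cultures, so p-values measure the spread between these libraries. Poly(A) RNA was sequenced, and each gene's level is an RPKM, the reads of a gene per kilobase of its length, scaled to the mapped reads of the library, as the authors deposited it, with missing values taken as 0. ABC-1 and RKO were grown in EMEM and the other 3 lines in RPMI-1640, and each sensitive line is a tumor of its own tissue. RKO thus shares its medium with ABC-1 and its tissue with COLO 320DM, and as the only insensitive line its insensitivity to TNKSi cannot be told apart from its other differences as a line. With 1 insensitive line against 4, an exact one-sided permutation test over lines cannot go below p = 0.2, so no such test was made and every call below says only that RKO differed from the named lines beyond the spread of replicate libraries.

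Tankyrase 1 and 2 (TNKS, TNKS2) attach poly-ADP-ribose to the scaffold proteins AXIN1 and AXIN2 and to the angiomotins and so mark them for degradation. AXIN proteins hold together the destruction complex that removes β-catenin, the effector of WNT signaling, and angiomotins bind the co-activator YAP, the effector of Hippo signaling. RKO is known as a poorly differentiated colon cancer line with intact APC and an activating BRAF mutation. COLO 320DM is known for truncated APC and an amplified MYC gene.

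The 2 RKO libraries were close to each other, with an SD of 0.0899 log2 units between replicates, the smallest of the 5 lines (0.124 in COLO 320DM, the largest). The RPKM values summed to 413507 and 413587 in RKO, to 381878 to 514173 in COLO 320DM, ABC-1 and UO-31, and to 895010 and 909187 in OVCAR-4. The files give no read counts, so absolute depth is unknown. The spacing of the smallest values placed the reads behind the OVCAR-4 libraries at 0.44 and 0.416 of those behind the first RKO library and the other DMSO libraries at 0.759 to 1.027. RKO nevertheless had a value above 0 for the fewest genes, 15379 and 15341 against 16299 to 17415 in the other 8 libraries. Because the OVCAR-4 values are higher as a whole, the median of RKO minus the mean of the 4 lines was -0.42 log2 units over all genes tested. After each library was divided by its median ratio to the geometric mean of all libraries (rescaled values) it was -0.12. Log2 differences and adjusted p-values below are from rescaled values, on the scale of log2(RPKM + 0.5), which understates the difference of genes near 0. RPKM levels are the deposited ones, and gene positions in brackets are those of GENCODE on GRCh37, the build of the authors' reference.

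RKO differed from the mean of the sensitive lines in most of its transcriptome. The 14101 genes tested had a mean of 1 RPKM or more in 1 or more of the lines. Of these, 5490 (38.9%) were higher and 6878 (48.8%) lower in RKO than the mean of the 4 lines (limma, adjusted p under 0.05). On deposited values 3309 (23.5%) were higher and 8619 (61.1%) lower, so the split between directions depends on the scale. Against single lines, 39.3% of the genes were higher and 40.2% lower than in COLO 320DM, 38.4% and 42% for ABC-1, 37.1% and 44.4% for UO-31, and 38.6% and 46.2% for OVCAR-4. A mean of 4 tumor types can be set by 1 line, so a gene was counted as apart only where RKO differed from each of the 4 lines in the same direction. By that rule 1857 genes (13.2%) were higher in RKO than in each line and 1876 (13.3%) lower, against 794 (5.63%) and 2295 (16.3%) on deposited values. With at least 2-fold to the nearest line, 415 (2.94%) were higher and 503 (3.57%) lower, against 259 (1.84%) and 600 (4.26%) on deposited values. Of these 415, 411 were again higher than each line in the G007-LK libraries, and of the 503, 502 were again lower. With the 2-fold rule kept, 350 of the 415 and 433 of the 503 passed again. Across the 14101 genes RKO was most alike to COLO 320DM, by Spearman correlation (0.81) and by the number of genes at least 2-fold apart (4469), and then to UO-31 (0.78 and 4792). ABC-1 had the lowest correlation by a small margin (0.77 against 0.773 for OVCAR-4), and OVCAR-4 the most genes 2-fold apart (5405 against 5066). These correlations are descriptions across genes that share the same libraries, and pairs among the sensitive lines lay between 0.726 and 0.817.

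RKO had little or no RNA of a set of genes that all of the other lines expressed. In RKO 143 genes lay under 0.1 RPKM in both libraries while each of the 8 other libraries held at least 1 RPKM, which is 1.56% of the 9146 genes that could have been silent by this rule. The same count was 61 of 9061 in COLO 320DM (0.673%), 55 of 9137 in ABC-1 (0.602%), 18 of 8914 in UO-31 (0.202%) and 10 of 8838 in OVCAR-4 (0.113%). The reverse set was small, since only 11 genes (0.106% of 10353) were found at 1 RPKM or more in both RKO libraries and under 0.1 in the other 8, against 94 in COLO 320DM, 116 in OVCAR-4, 34 in ABC-1 and 78 in UO-31. Rescaled values gave the same order for the silent sets, with 130, 56, 49, 17 and 12 genes. For the reverse set rescaled values gave 12 in RKO, again the fewest, and another order among the rest, with 107 in COLO 320DM, 76 in OVCAR-4, 44 in ABC-1 and 99 in UO-31. Of the 143 genes 41 were listed at 0 in both RKO libraries, and 38 had at least 5 RPKM in each of the other libraries. The mean of the others ran from 1.41 to 408 RPKM with a median of 11. After G007-LK 138 of the 143 were still under 0.1 RPKM in both RKO libraries, and the highest value of any was 0.16 (PDLIM1).

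**Figure D1:**
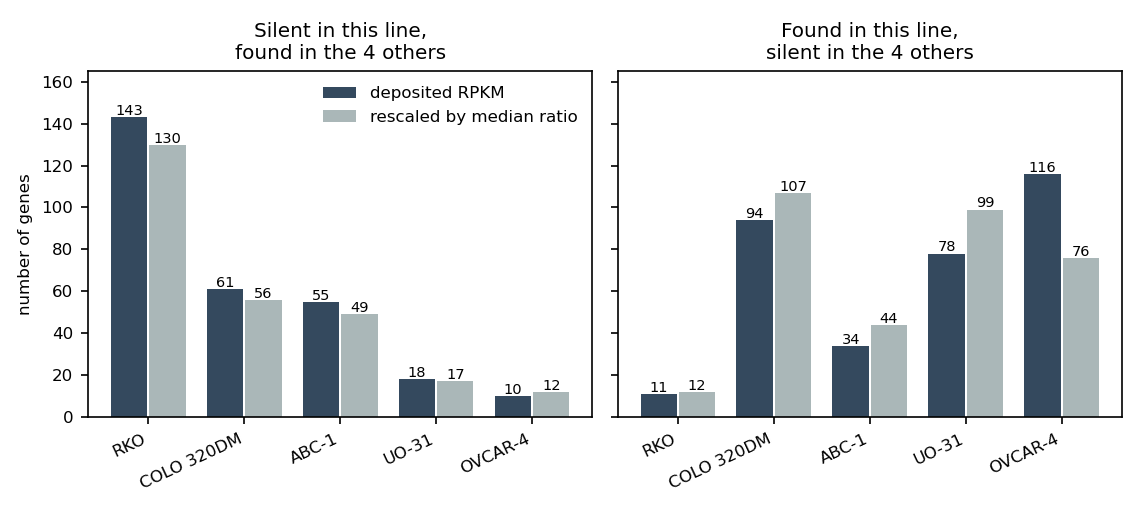
Bars count genes in each of the 5 lines (x axis) from deposited RPKM (dark) and rescaled RPKM (light). On the left, genes under 0.1 RPKM in both DMSO libraries of the line and at 1 RPKM or more in the 8 others are most numerous in RKO (143), and on the right the reverse set is smallest in RKO (11).

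Promoters of 3 silent genes and, for contrast, of a silent gene and a gene found high in RKO whose promoters hold few CpG are shown with each CG in capitals. FSTL1 was the silent gene farthest from the other lines. HLTF and CHFR, picked after their values were seen, encode a helicase-like factor of replication fork repair and a ubiquitin ligase of the early mitotic checkpoint, genes known to be methylated in colon cancers. GJA1 encodes the gap junction protein connexin 43, and BCL2A1 was the gene farthest above the other lines. Each sequence runs 5′ to 3′ from 250 bases before to 50 after the first start that RefSeq lists (GRCh38.p14).
FSTL1: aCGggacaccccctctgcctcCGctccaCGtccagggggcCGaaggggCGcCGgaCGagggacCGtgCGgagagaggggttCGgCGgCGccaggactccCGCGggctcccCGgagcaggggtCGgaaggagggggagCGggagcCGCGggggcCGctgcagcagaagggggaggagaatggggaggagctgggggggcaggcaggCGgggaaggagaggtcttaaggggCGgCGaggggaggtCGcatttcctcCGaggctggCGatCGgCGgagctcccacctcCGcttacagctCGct
HLTF: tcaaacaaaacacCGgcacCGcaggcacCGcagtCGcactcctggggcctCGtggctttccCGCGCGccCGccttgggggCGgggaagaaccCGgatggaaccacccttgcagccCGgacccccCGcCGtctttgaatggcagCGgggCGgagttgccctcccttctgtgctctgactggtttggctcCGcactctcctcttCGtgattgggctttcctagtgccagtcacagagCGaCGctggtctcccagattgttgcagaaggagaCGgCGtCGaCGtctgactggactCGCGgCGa
CHFR: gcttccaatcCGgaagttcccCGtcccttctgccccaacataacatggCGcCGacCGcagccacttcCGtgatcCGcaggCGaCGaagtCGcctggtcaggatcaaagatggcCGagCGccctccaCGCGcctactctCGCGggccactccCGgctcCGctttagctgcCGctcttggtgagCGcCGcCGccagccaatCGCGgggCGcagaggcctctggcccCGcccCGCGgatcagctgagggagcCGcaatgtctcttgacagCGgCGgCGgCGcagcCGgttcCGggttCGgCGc
GJA1: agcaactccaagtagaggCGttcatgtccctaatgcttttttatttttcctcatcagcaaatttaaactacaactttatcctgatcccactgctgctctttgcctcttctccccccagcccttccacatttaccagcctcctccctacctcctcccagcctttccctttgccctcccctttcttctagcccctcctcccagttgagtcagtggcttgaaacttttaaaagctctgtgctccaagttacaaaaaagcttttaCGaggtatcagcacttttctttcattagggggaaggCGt
BCL2A1: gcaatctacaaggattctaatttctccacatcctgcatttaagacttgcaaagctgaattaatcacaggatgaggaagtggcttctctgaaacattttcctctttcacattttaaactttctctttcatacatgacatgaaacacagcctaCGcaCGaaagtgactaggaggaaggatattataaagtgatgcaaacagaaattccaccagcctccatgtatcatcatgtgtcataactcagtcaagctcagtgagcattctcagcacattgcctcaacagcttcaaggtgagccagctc
FSTL1 lies at chr3:120450943-120451242 (minus strand), HLTF at chr3:149086484-149086783 (minus), CHFR at chr12:132887556-132887855 (minus), GJA1 at chr6:121435396-121435695 (plus) and BCL2A1 at chr15:79971147-79971446 (minus). The windows of FSTL1, HLTF and CHFR hold 30, 27 and 37 CpG, and those of GJA1 and BCL2A1 hold 3 and 2.

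The share of CpG-rich promoters was no higher among silent genes than among genes that could have been silent. With CpG-rich defined as a GC content of at least 55% and an observed over expected CpG ratio of at least 0.65, 81 of the 111 silent genes with a RefSeq promoter were CpG-rich (73%, median 26 CpG). Among the 7545 genes with a promoter that could have been silent the share was 80.2% (median 28), and over all genes tested it was 72.5%. The silent sets of the other lines held 60 to 71.4%. Of the genes found in RKO alone, 1 of 6 had a CpG-rich promoter, against 78.1% of the 8426 that could have been found so. DNA methylation was not measured in these libraries.

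FSTL1, which encodes the secreted glycoprotein follistatin-like 1, had 0.0547 and 0.028 RPKM in the RKO libraries, 160.3 and 196 for COLO 320DM, 663 and 754 for ABC-1, 382 and 359 for UO-31 and 364 and 382 for OVCAR-4. The 2 RKO libraries lay below every other library by a log2 difference of -9.30 ± 0.04 (SE) to the mean of the lines and -8.50 to the nearest line (limma, largest of the 4 adjusted p = 1.51e-14). GJA1 had 0.0224 and 0.0229 RPKM in the RKO libraries, 32.8 and 42.8 for COLO 320DM, 52.7 and 60.1 for ABC-1, 119 and 113 for UO-31 and 61.8 and 65.6 for OVCAR-4, a difference of -6.84 ± 0.05 to the mean. HLTF had 0.0327 and 0.0334 RPKM in the RKO libraries, 32.5 and 43 for COLO 320DM, 19.2 and 22.2 for ABC-1, 13.7 and 12.9 for UO-31 and 24.7 and 26.1 for OVCAR-4 and differed by -5.36 ± 0.06. For CHFR the values were 0.0638 and 0.0544 RPKM in the RKO libraries, 8.18 and 9.58 for COLO 320DM, 10.2 and 12.1 for ABC-1, 14.4 and 14.3 for UO-31 and 22.6 and 20.5 for OVCAR-4, and the difference was -4.52 ± 0.06. Values near 0 in RKO without overlap follow, for these 4 genes, from the rule for silent genes by which they were picked.

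Some silent genes were neighbours in the genome. A head-to-head pair was the imprinted pair on chromosome 7, SGCE (sarcoglycan epsilon) and PEG10 (a retrotransposon-derived gene), whose annotated spans overlap. SGCE was listed at 0 in both RKO libraries and lay at 8.12 to 50.9 RPKM elsewhere. PEG10 had 0.0264 and 0.027 RPKM in RKO against 28.4 to 56.3. NNT, the mitochondrial transhydrogenase, stood at 0.00746 and 0.0153 RPKM in RKO against 6.19 to 40.7. It overlaps its antisense gene NNT-AS1 and both were silent, and since counting by strand was not stated, their reads cannot be told apart. In all, 20 silent genes formed 11 pairs within 100000 bases of each other. Such pairs were not counted among all genes that could have been silent, so whether 11 is many was not tested. The pairs also included SCOC and CLGN on chromosome 4, HOOK1 and CYP2J2 on chromosome 1, and ZNF512B and TCEA2 on chromosome 20. FAM127A and FAM127B on X were another pair, near-identical copies whose values are uncertain.

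Zinc finger genes were among the silent genes. Of 286 genes named ZNF, ZSCAN, ZKSCAN or ZFP that could have been silent, 11 were (3.85%, against 1.56% of all such genes), a description with no test. Chromosome 19 held 13 silent genes of 618 (2.1%), and shares ran from 0.38% on chromosome 11 to 3.67% on chromosome 4. ZNF549, ZNF530, ZNF256, ZNF606, ZSCAN18 and ZNF274 lie between bases 58038693 and 58724928 of chromosome 19 (GRCh37), a stretch whose ends were set by these genes and in which 6 of the 15 genes that could be silent were silent. That these 6 neighbours were under 0.1 RPKM in RKO and at 1 RPKM or more elsewhere follows from the rule for silent genes.

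Other genes with little or no RNA in RKO have varied roles. MAL2, a protein of apical transport in epithelia, had 0.0989 and 0.101 RPKM in RKO and 108 to 415 in the other libraries. JUP, the junction protein plakoglobin and a relative of β-catenin, had 0.02 and 0.0918 against 17.2 to 307. TIMP2, an inhibitor of matrix metalloproteinases, had 0.324 and 0.302 against 43.1 to 209.5. PLOD2, which hydroxylates collagen lysines, had 0.00859 and 0.0264 against 17.9 to 128. These 4 genes were picked for low values in RKO, so their gap to the other libraries describes them and is no separate result. RDX (radixin, which ties actin to the membrane) had 0.0233 and 0.0318 against 22 to 81.5, and MYH10, a nonmuscle myosin heavy chain, 0.153 and 0.166 against 22.8 to 59.9. FBLN1, the matrix protein fibulin 1, had 0.107 and 0.134 against 28.3 to 70.4. LAPTM4B, a lysosomal membrane protein, had 0.656 and 0.463 against 136 to 417, and the fatty acid elongase ELOVL5 had 0 and 0.0115 against 28.4 to 51. BNIP3, a hypoxia-induced protein of mitophagy, had 0.228 and 0.0932 against 22.3 to 85.2. The log2 differences of these 10 genes to the mean of the lines ran from -8.17 (MAL2) to -5.48 (MYH10), and RKO lay below each line in all of them (limma).

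**Figure D2:**
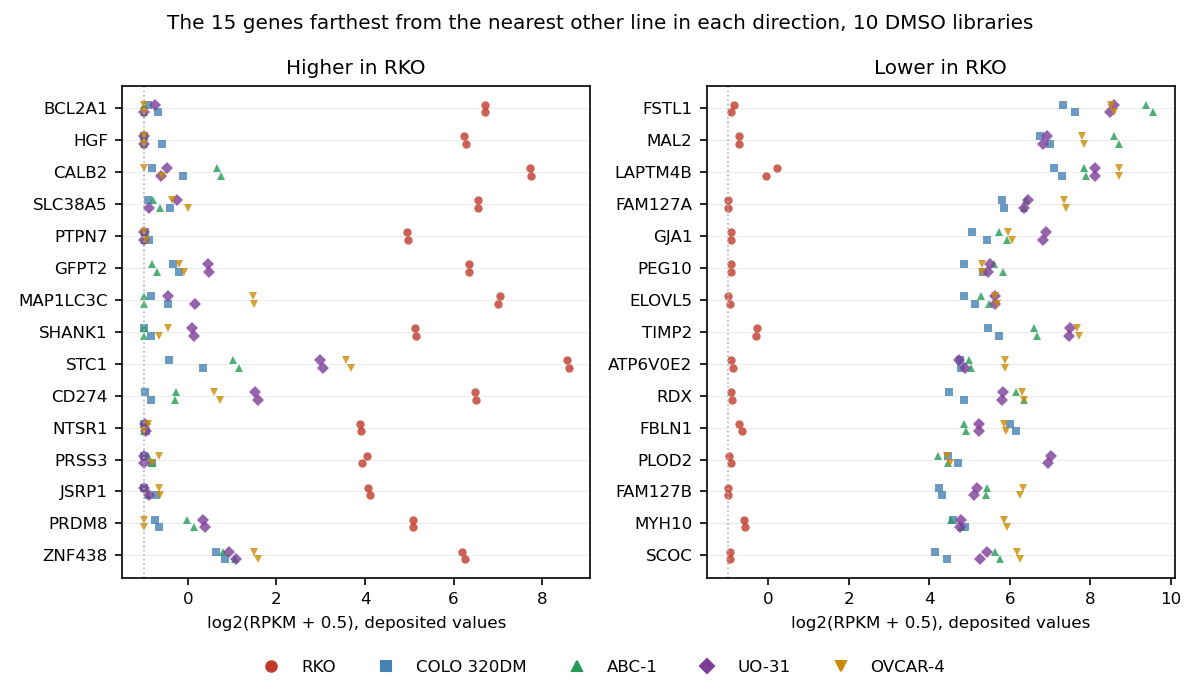
Each point is a DMSO library, placed by log2(RPKM + 0.5) on the x axis, for the 15 genes on each side with the widest gap between RKO and the nearest other line, and the dotted line marks 0 RPKM. RKO (circles) lies alone at the high end on the left (BCL2A1 at 104 RPKM in both libraries) and near or at 0 for most genes on the right (FSTL1 at 0.0547 and 0.028 RPKM).

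At the other end BCL2A1 (chr15:80253234-80263538, minus strand), an anti-apoptotic member of the BCL2 family, had 104 and 104 RPKM in the RKO libraries and 0 to 0.125 in the others, with no overlap. Its log2 difference of 7.88 ± 0.08 (limma, largest adjusted p = 7.76e-13), like those of the other genes near 0 outside RKO, is set in part by the 0.5 RPKM added. HGF, the ligand of the MET receptor, had 74.4 and 77 against 0 to 0.17. CALB2, the calcium-binding protein calretinin, had 211 and 215 against 0 to 1.18. The amino acid transporter SLC38A5 had 93.8 and 92.6 against 0.034 to 0.503, and the hexosamine pathway enzyme GFPT2 81.6 and 80.5 against 0.0664 to 0.894. RNA of these 5 genes, picked for their gap to the nearest line, was abundant in RKO and at 1.18 RPKM or less in every other library. PTPN7, a phosphatase that acts on MAP kinases, had 30.4 and 31.1 against 0 to 0.0423 and was 1 of the 11 genes found in RKO alone. Those 11 also included the neurotensin receptor NTSR1 (14.4 and 14.5 RPKM), the TNF family ligand TNFSF8, the endothelial marker ESM1, the transcription factor PRDM16 and the adhesion protein OPCML. STC1, the secreted stanniocalcin 1, had 379 and 388 against 0.245 to 12.4 RPKM. The transcription factor ZNF438 had 72.4 and 76.3 against 1.06 to 2.47, and the autophagy protein MAP1LC3C 132 and 127 against 0 to 2.33. On the log2 scale STC1 stood 7.03 ± 0.15 and ZNF438 5.50 ± 0.07 above the mean of the lines.

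The gene lists that follow hold pathway members and cell markers, and each count is to be read against the shares over all genes tested (13.2% higher and 13.3% lower than each line) and their median difference of -0.12. MAPK output, the genes that ERK activity is known to induce and the feedback inhibitors among them, was the list with the largest share higher in RKO. Of its 27 tested members 14 were higher than each of the 4 lines, 8 of them by at least 2-fold, and 1 was lower (deposited values, 13 and 1). The median difference was 1.34, and 19 members were higher and 7 lower than the mean of the lines.

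SPRY4 (chr5:141689992-141706020, minus strand), a feedback inhibitor of receptor tyrosine kinase signaling, had 97.7 and 95.8 RPKM in the RKO libraries, 0.13 and 0.224 for COLO 320DM, 0.232 and 0.257 for ABC-1, 1.56 and 1.39 for UO-31 and 5.69 and 5.66 for OVCAR-4. RKO stood 6.34 ± 0.06 above the mean on the log2 scale, and 4.92 above OVCAR-4, the nearest line (limma, largest adjusted p = 1.68e-12). DUSP6 (chr12:89741012-89746278, minus strand), the phosphatase that inactivates ERK, had 74.9 and 75.4 RPKM in the RKO libraries, 1.06 and 0.982 for COLO 320DM, 1.45 and 1.17 for ABC-1, 14.6 and 14.3 for UO-31 and 0.979 and 0.976 for OVCAR-4, so that UO-31 was the nearest line. The difference to the mean was 5.05 ± 0.08. DUSP5, its nuclear counterpart, had 36.4 and 37.6 RPKM in RKO against 2.26 to 11.5. The early response factor EGR1 had 59.6 and 58.5 against 0.609 to 21.1, and PHLDA1 104 and 103 against 1.07 to 38.5. The ETS factors ETV4 and ETV5 stood at 2.87 and 2.44 above the mean, and the RAS pathway inhibitor SPRED1 at 1.80. In all 8 genes both RKO libraries were above every other library. FOSL1, an AP-1 subunit, had 193 and 199.9 RPKM in the RKO libraries, 0.143 and 0.454 for COLO 320DM, 0.12 and 0.128 for ABC-1, 139.6 and 141 for UO-31 and 27.7 and 27.6 for OVCAR-4, higher than each line but with UO-31 close behind (0.67). BRAF itself, the kinase upstream of ERK, had 6.02 and 6.14 RPKM in the RKO libraries, 2.07 and 2.95 for COLO 320DM, 2.56 and 2.65 for ABC-1, 3.23 and 3.25 for UO-31 and 6.04 and 5.87 for OVCAR-4, and was higher than each line only after rescaling. EPHA4, an ephrin receptor, was the member that was lower and was listed at 0 in both RKO libraries and at 0.301 to 5.11 RPKM elsewhere.

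**Figure D3:**
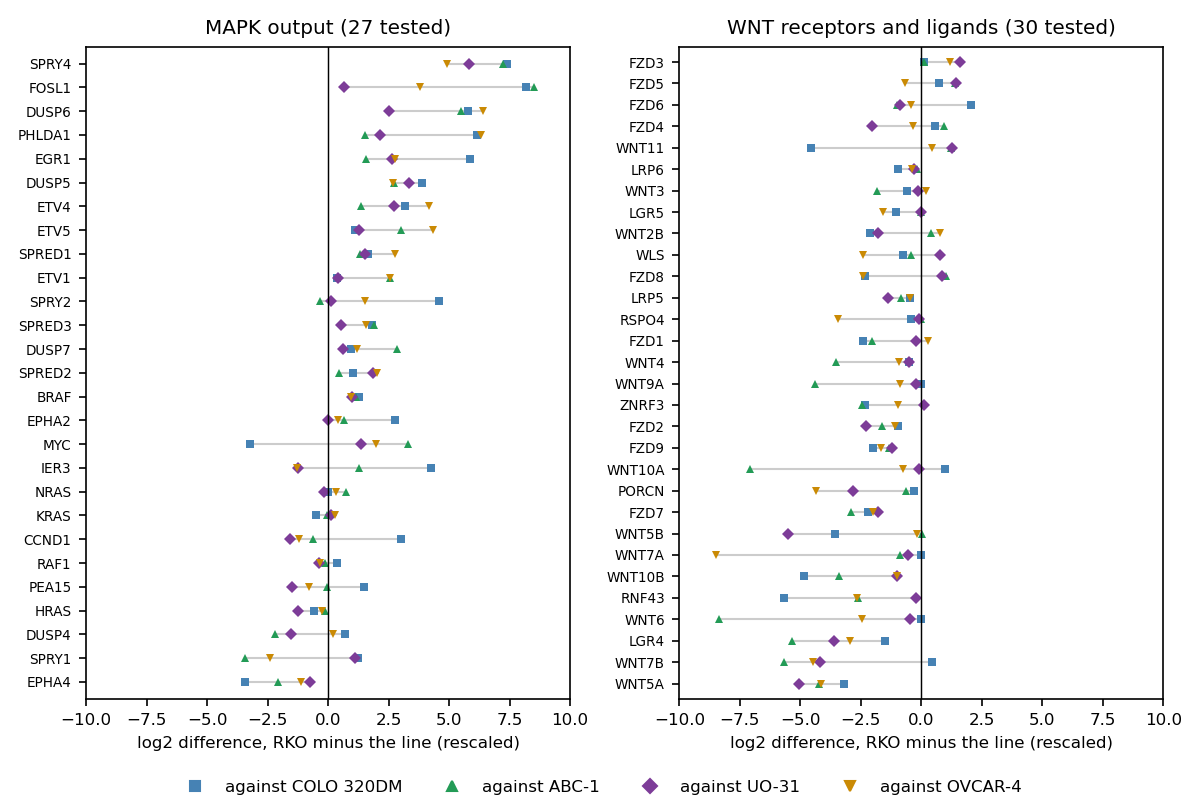
Points give the rescaled log2 difference of RKO from each of the 4 sensitive lines (x axis, log2 units) for the 27 tested members of MAPK output (left) and the 30 of WNT receptors and ligands (right), and grey bars span the 4 lines. For 14 MAPK members the 4 points lie right of 0 past the test, and for 10 WNT members they lie left of 0, with no WNT member higher than each line.

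WNT receptors and ligands showed the opposite split. Of 30 tested members (36 in the list) 10 were lower in RKO than in each line and none was higher, while 27 were lower and 2 higher than the mean of the lines (48.8% and 38.9% of all genes). The median difference was -1.37, and deposited values gave 12 lower and none higher. WNT5A (chr3:55499743-55524567, minus strand), a non-canonical WNT ligand, was listed at 0 RPKM in both RKO libraries and lay at 3.06 to 16 elsewhere. The WNT receptor FZD7 had 2.55 and 2.15 RPKM in the RKO libraries, 12.3 and 14.1 for COLO 320DM, 21.2 and 20.9 for ABC-1, 10.3 and 10.3 for UO-31 and 21.1 and 22.1 for OVCAR-4, with a difference of -1.78 to the nearest line on the log2 scale. The R-spondin receptor LGR4 had 1.26 and 1.16 RPKM against 3.97 to 73.7, with COLO 320DM the nearest. FZD2 stood at 2.23 and 1.94 against 4.74 to 13.9. The co-receptor LRP5, the WNT acyltransferase PORCN and the receptor-clearing ligase RNF43 were also lower than each line, with differences of -0.79, -2.03 and -2.80 to the mean. The other 20 members did not pass against all 4 lines.

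Targets and feedback genes of β-catenin were on the low side as well, with 4 of 21 tested members lower than each line (TNFRSF19, BMP4, SOX4 and RNF43), none higher and a median of -1.40. AXIN2, a direct β-catenin target and tankyrase substrate, had 0.644 and 0.515 RPKM in the RKO libraries, 116 and 134 for COLO 320DM, 5.46 and 5.97 for ABC-1, 0.337 and 0.194 for UO-31 and 7.48 and 7.98 for OVCAR-4. RKO was thus far below COLO 320DM, ABC-1 and OVCAR-4 and slightly above UO-31. Its log2 difference was -6.87 to COLO 320DM and 0.62 to UO-31. LGR5, a stem cell target of the pathway, was listed at 0 in both RKO libraries and at 0 to 1.8 RPKM elsewhere. Among the nuclear TCF/LEF factors and partners 4 of 14 were lower than each line, of which the co-repressor TLE1 had 4.73 and 4.69 against 16 to 73.8, and TCF7L1, PYGO1 and BCL9 followed.

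Few genes of the degradasome or the tankyrases stood apart. Of 12 tested members (13 in the list) 1 was higher than each line after rescaling and none on deposited values, and none was lower, with a median of 0.17. That 1 was APC, a scaffold of the destruction complex, with 6.01 and 6.4 RPKM in the RKO libraries, 3 and 4.11 for COLO 320DM, 1.6 and 2.29 for ABC-1, 3.45 and 3.4 for UO-31 and 9.76 and 10.1 for OVCAR-4. TNKS had 4.31 and 4.42 RPKM in the RKO libraries, 3.55 and 4.86 for COLO 320DM, 3 and 3.62 for ABC-1, 5.44 and 5.35 for UO-31 and 4.97 and 5.3 for OVCAR-4, and its difference to the mean was 0.29 after rescaling and -0.02 on deposited values, so that its direction depends on the scale. TNKS2 differed by -0.20 ± 0.06, AXIN1 by 0.50 ± 0.04 and GSK3B, the kinase of the complex, by 0.04 ± 0.05 (deposited -0.29). CTNNB1, which encodes β-catenin, had 134 and 136 RPKM in the RKO libraries, 63.2 and 76 for COLO 320DM, 53.6 and 63.8 for ABC-1, 183 and 181 for UO-31 and 220.1 and 225 for OVCAR-4, a difference of 0.59 ± 0.04. RKO lay within the range of the other lines on rescaled values for TNKS, TNKS2, AXIN1, GSK3B and CTNNB1.

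**Figure D4:**
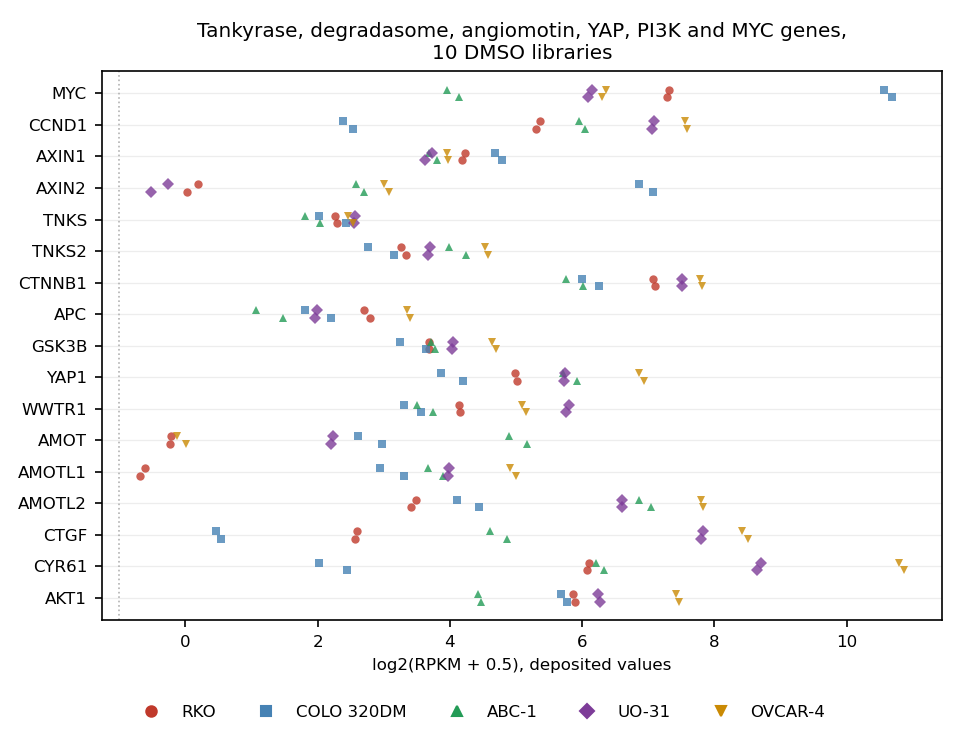
Each point is a DMSO library, placed by log2(RPKM + 0.5) on the x axis (dotted line at 0 RPKM), for the genes of the tankyrases, the degradasome, the angiomotins, YAP and its targets, PI3K and MYC. RKO (circles) lies apart at the low end for AMOTL1 (0.156 and 0.119 RPKM) and AMOTL2 (10.7 and 10.1), and inside the spread of the lines for TNKS, TNKS2, CTNNB1 and YAP1.

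Of the angiomotins, tankyrase substrates that restrain YAP, AMOTL1 and AMOTL2 were lower in RKO than in each line. AMOTL1 (chr11:94439597-94609913, plus strand) had 0.156 and 0.119 RPKM in the RKO libraries, 7.17 and 9.35 for COLO 320DM, 12.2 and 14.4 for ABC-1, 15.4 and 15.1 for UO-31 and 29.4 and 31.6 for OVCAR-4. The log2 difference was -4.48 ± 0.06 to the mean and -3.86 to the nearest line (limma, largest adjusted p = 1.15e-11). AMOTL2 had 10.7 and 10.1 RPKM in the RKO libraries, 16.8 and 21.2 for COLO 320DM, 116 and 132 for ABC-1, 96.5 and 96.7 for UO-31 and 222 and 227 for OVCAR-4, lower than each line with COLO 320DM the nearest (-0.73). AMOT had 0.363 and 0.35 RPKM in the RKO libraries, 5.58 and 7.36 for COLO 320DM, 29.2 and 35.5 for ABC-1, 4.22 and 4.12 for UO-31 and 0.412 and 0.508 for OVCAR-4, so that RKO and OVCAR-4 were both low. The Hippo and YAP list as a whole held 2 of 21 members higher than each line and 3 lower, with a median of -0.25. STK4 (chr20:43595135-43708662, plus strand), the Hippo kinase MST1, had 48.6 and 49.9 RPKM in the RKO libraries, 5.7 and 7.51 for COLO 320DM, 8.94 and 10.9 for ABC-1, 10.2 and 11.2 for UO-31 and 10.6 and 10.8 for OVCAR-4 and stood 2.68 ± 0.07 above the mean, with no overlap. MOB1A, an adaptor of the LATS kinases, was higher than each line only after rescaling (0.80). VGLL4, which competes with YAP for TEAD factors, was lower (-1.20). YAP1 had 31.2 and 31.9 RPKM in the RKO libraries, 14 and 17.9 for COLO 320DM, 51.8 and 60.5 for ABC-1, 52.8 and 52.6 for UO-31 and 115 and 122 for OVCAR-4. Its relative WWTR1 (TAZ) had 17 and 17.3 in RKO against 9.34 to 55.1. Neither was apart from all 4 lines.

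Of 24 YAP/TEAD targets tested 7 were lower than each line, none was higher and the median was -1.70, with 19 lower and 4 higher than the mean. Deposited values gave 5 lower. The RPKM of the list summed to 416.1 and 413.8 in RKO, 98.32 and 120.7 in COLO 320DM and 1356 to 4846 in the libraries of the other lines. By this sum COLO 320DM, not RKO, was the lowest line. WTIP, an inhibitor of the Hippo kinases, had 0.286 and 0.114 RPKM in RKO against 2.89 to 14.1, and the kinase NUAK2 had 0.264 and 0.249 against 2.12 to 29.6. ARHGEF17, a guanine nucleotide exchange factor, had 1.32 and 1.25 against 3.56 to 26.4. CTGF, the matricellular target most used as a YAP readout, had 5.54 and 5.39 RPKM in the RKO libraries, 0.882 and 0.947 for COLO 320DM, 23.8 and 28.6 for ABC-1, 227 and 221 for UO-31 and 341 and 364 for OVCAR-4. RKO was below UO-31, ABC-1 and OVCAR-4 for it but not below COLO 320DM. CYR61 had 68.5 and 67 RPKM in the RKO libraries, 3.55 and 4.92 for COLO 320DM, 73.5 and 79.9 for ABC-1, 415 and 399 for UO-31 and 1771 and 1866 for OVCAR-4, again inside the range of the lines. AMOTL2 is itself a YAP target and counted in both lists.

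In the PI3K, AKT and FOXO list 2 of 26 members were higher than each line (TSC1 and PHLPP2, which restrain mTORC1 and AKT) and 6 were lower, none by 2-fold, with a median of -0.56. The lower ones were the insulin-like growth factor receptor IGF1R (2.66 and 2.46 RPKM against 5 to 11.6), the PI3K subunit PIK3R3, the adaptor IRS2, the phosphatase INPP4B, TSC2 and AKT2. AKT1 differed from the mean by 0.24 after rescaling and -0.09 on deposited values and was not apart from all 4 lines.

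MYC had 159 and 155 RPKM in the RKO libraries, 1515 and 1655 for COLO 320DM, 15 and 17 for ABC-1, 70.2 and 67.9 for UO-31 and 81.9 and 78.3 for OVCAR-4. RKO was thus below COLO 320DM, by a log2 difference of -3.22, and above the other 3 lines, by 1.36 to UO-31, the nearest of them. The difference to the mean of the 4 lines was 0.86 ± 0.03. On deposited values it was 0.52 with all lines and -0.39 without ABC-1, so that 1 line decides its direction on that scale. Fits without a line were not made on rescaled values. CCND1, cyclin D1, had 40.7 and 38.9 RPKM in the RKO libraries, 4.69 and 5.27 for COLO 320DM, 61.2 and 65.6 for ABC-1, 135 and 133 for UO-31 and 187 and 191 for OVCAR-4, with only COLO 320DM below RKO. In the MYC network and G1 cyclin list 6 of 32 members were higher than each line and 5 lower (3 and 7 on deposited values). CCNE2, cyclin E2, had 32.4 and 32.6 RPKM in the RKO libraries, 5.18 and 6.53 for COLO 320DM, 10.2 and 11.4 for ABC-1, 7.5 and 7.2 for UO-31 and 18.3 and 20.1 for OVCAR-4 and stood 2.02 ± 0.05 above the mean. CDKN1B, the cyclin-dependent kinase inhibitor p27, had 7.73 and 6.94 RPKM in the RKO libraries, 24.9 and 28.4 for COLO 320DM, 23.8 and 26.4 for ABC-1, 37.2 and 35 for UO-31 and 40.5 and 41.6 for OVCAR-4 and stood at -1.71 ± 0.04, with -1.42 to the nearest line. CDKN2A, which encodes p16 and ARF, had 0 and 0.0282 RPKM in RKO against 0.346 to 211, and MYCN was listed at 0 in both RKO libraries. Of 25 DNA replication genes 8 were higher than each line and none lower after rescaling (3 and none on deposited values), led by MCM10, a helicase loading factor (28.1 and 29.5 against 6.25 to 21.1 RPKM). Mitosis genes split 4 higher and 2 lower of 25 after rescaling (0 and 2 on deposited values), so that their split depends on the scale.

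MSH3 (chr5:79950471-80172634, plus strand), a mismatch repair protein that binds insertion loops, had 0.814 and 0.768 RPKM in the RKO libraries, 4.38 and 5.16 for COLO 320DM, 4.11 and 4.68 for ABC-1, 5.44 and 4.83 for UO-31 and 9.65 and 8.92 for OVCAR-4, lower than each line with a difference of -2.01 ± 0.06. The repair genes PMS1 and EXO1 were higher only after rescaling, and MSH6 (-0.59) and PMS2 (-0.34) were not apart from all 4 lines. CDKN1A, the cyclin-dependent kinase inhibitor p21, had 73.5 and 74.6 RPKM in the RKO libraries, 0.537 and 0.646 for COLO 320DM, 11.9 and 11.7 for ABC-1, 246 and 239.6 for UO-31 and 206 and 224 for OVCAR-4. RKO lay between ABC-1 and OVCAR-4 for it. In the BCL2 family 3 of 16 were higher (BCL2A1, BAK1 and BCL2L2, the last 2 only after rescaling) and 2 lower, the pro-apoptotic BMF (0.0745 and 0.0457 against 1.4 to 3.66 RPKM) and BIK.

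The tissue label was checked against defining markers. Among colon epithelium markers the intestinal homeobox factor CDX2 had 6.88 and 7.43 RPKM in the RKO libraries, 732 and 763 for COLO 320DM, 0 and 0 for ABC-1, 0 and 0 for UO-31 and 0.403 and 0.603 for OVCAR-4. CDX1, GPA33 and MUC2 were listed at 0 in both RKO libraries, and VIL1, LGALS4, CDH17, KRT20 and GUCY2C stayed under 0.1 RPKM. These 8 colon markers were therefore at or near 0 in RKO. Markers of kidney and ovary (summed 1.80 and 1.66 RPKM over 6 genes in the RKO libraries), of lung (0.0475 and 0.0778 over 4), of neuroendocrine cells (0.516 and 0.37 over 5) and of blood and endothelium (0.0227 and 0.0198 over 7) were low in RKO, where the highest was the kidney factor PAX2 at 1.02 and 0.934 RPKM. In bulk RNA fewer cells of a type and less RNA per cell cannot be told apart.

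Most epithelial and mesenchymal genes were lower in RKO than the mean of the sensitive lines. Of 30 epithelial genes 28 were lower than the mean of the lines, 8 were lower than each line, none was higher than each and the median was -3.70. Their RPKM summed to 151.8 and 150.4 in RKO, 281 to 302 in COLO 320DM and 5431 to 12690 in the other 6 libraries, so that RKO and COLO 320DM formed the low end. Keratin 8 (KRT8) had 6.38 and 6.83 RPKM in the RKO libraries, 73.3 and 74.6 for COLO 320DM, 1592 and 1577 for ABC-1, 1818 and 1699.9 for UO-31 and 1903 and 1915 for OVCAR-4. CDH1, E-cadherin, had 0.0581 and 0.104 RPKM in the RKO libraries, 0.304 and 0.149 for COLO 320DM, 69.2 and 80.8 for ABC-1, 0.402 and 0.389 for UO-31 and 106 and 111 for OVCAR-4, and EPCAM 2.71 and 2.73 RPKM in RKO against 1.1 to 609. E-cadherin RNA was thus under 0.5 RPKM in RKO, COLO 320DM and UO-31 and high in the other 2 lines. Of 25 tested mesenchymal genes (29 in the list, 12 at 0 in both RKO libraries) 22 were lower than the mean, 6 were lower than each line and 1 was higher than each, with a median of -1.68. FN1, fibronectin, had 0.0159 and 0.00812 RPKM in RKO against 1.17 to 369, and the collagen chain COL1A1 0.0177 and 0.0242 against 2.17 to 88. VIM, vimentin, had 13.2 and 14.7 RPKM in the RKO libraries, 539.7 and 579.6 for COLO 320DM, 1.56 and 1.87 for ABC-1, 1927 and 1925 for UO-31 and 44.9 and 44.8 for OVCAR-4. The member higher than each line was ZEB1, a repressor of E-cadherin, with 45.7 and 47.9 RPKM in the RKO libraries, 2.05 and 3.31 for COLO 320DM, 0.0191 and 0.0341 for ABC-1, 2.26 and 2.37 for UO-31 and 0.076 and 0.0803 for OVCAR-4, which stood 5.44 ± 0.09 above the mean of the lines.

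TGF-beta and BMP genes were mostly lower. Of 35 tested, 24 were lower and 8 higher than the mean of the lines, 10 were lower than each line (5 by 2-fold), 2 were higher and the median was -1.08, and deposited values gave 9 and 1. SMAD3 (chr15:67356101-67487511, plus strand), the signal transducer of TGF-beta receptors, had 0.397 and 0.223 RPKM in the RKO libraries, 7.17 and 8.35 for COLO 320DM, 9.03 and 9.47 for ABC-1, 33.4 and 34.5 for UO-31 and 30.4 and 31.8 for OVCAR-4, a difference of -4.24 ± 0.08. SMAD6, an inhibitor of BMP signaling, had 0 and 0.0119 RPKM against 4.37 to 34.7. The BMP-induced factors ID2 and ID3 had 1.1 and 1.1 against 14.4 to 84.9 and 15 and 15.3 against 62.3 to 160.2. The ligand TGFB1 was higher, with 57.4 and 57.8 against 8.38 to 39.6, and the type II receptor TGFBR2 had 5.05 and 5.13 RPKM in the RKO libraries, 0.138 and 0.28 for COLO 320DM, 18.1 and 20.2 for ABC-1, 34.2 and 33.8 for UO-31 and 108 and 104 for OVCAR-4. NOTCH genes split 3 higher and 6 lower of 21, with the DNA-binding partner RBPJ (43.7 and 44.8 against 8.45 to 26.2 RPKM) among the higher.

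Of 37 antigen presentation and interferon genes tested 5 were higher than each line, all by 2-fold, and 3 were lower, with a median of 0.17 (5 and 4 on deposited values). These counts are near or below the shares over all genes tested, so the values that follow describe single genes. CD274 (chr9:5450503-5470566, plus strand), the immune checkpoint ligand PD-L1, had 89.3 and 90.3 RPKM in the RKO libraries, 0.00924 and 0.0648 for COLO 320DM, 0.325 and 0.313 for ABC-1, 2.36 and 2.49 for UO-31 and 1.01 and 1.16 for OVCAR-4. RKO stood 6.58 ± 0.06 above the mean on the log2 scale and 5.14 above UO-31, the nearest line (limma, largest adjusted p = 1.52e-12). The DNA sensor cGAS (MB21D1) had 18.6 and 18 RPKM in the RKO libraries, 0.0189 and 0.0221 for COLO 320DM, 0 and 0 for ABC-1, 0 and 0.0507 for UO-31 and 5.43 and 5.5 for OVCAR-4. Its downstream adaptor STING (TMEM173) had 0.0799 and 0.0163 RPKM in the RKO libraries, 12.9 and 14.4 for COLO 320DM, 12.8 and 13.6 for ABC-1, 11 and 10.8 for UO-31 and 256 and 258 for OVCAR-4. The sensor was thus high and its adaptor under 0.1 RPKM in the same libraries. CD68, a lysosomal glycoprotein used as a macrophage marker, had 344 and 341 RPKM against 1.37 to 21.8, while the 7 defining blood and endothelial markers, PTPRC among them, summed to 0.0227 and 0.0198 RPKM in RKO.

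Most sterol synthesis genes were lower in RKO. Of 21 members 19 were lower and 1 higher than the mean, 12 were lower than each line, none was higher than each and the median was -0.88 (13 lower on deposited values). DHCR7 (chr11:71139239-71163914, minus strand), the last enzyme of cholesterol synthesis, had 6.62 and 6.63 RPKM in the RKO libraries, 39.5 and 43.8 for COLO 320DM, 105 and 111 for ABC-1, 88.6 and 86.1 for UO-31 and 189.5 and 192 for OVCAR-4, a difference of -3.40 ± 0.03. HMGCS1, which makes HMG-CoA, had 7.87 and 8.02 RPKM against 20.2 to 103, and MVK, mevalonate kinase, 5.13 and 5.56 against 16.9 to 34. Their differences were -2.03 and -1.78, and the RKO values lay below all other libraries in both.

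DNA methylation and Polycomb genes were mixed, with 5 of 22 higher than each line and 3 lower. UHRF1, which recruits the maintenance methyltransferase, had 73.7 and 75.2 RPKM in the RKO libraries, 35.9 and 42.8 for COLO 320DM, 35.1 and 38.9 for ABC-1, 35.4 and 33 for UO-31 and 40.0 and 39 for OVCAR-4, 1.32 ± 0.04 above the mean. The de novo methyltransferases DNMT3A (1.66 and 1.51 against 3.82 to 8.99 RPKM) and DNMT3B (2.55 and 2.51 against 3.94 to 16.9) were lower than each line. KDM6B, an H3K27 demethylase, was higher (11.4 and 11.7 against 1.78 to 5.73), and IDH2 was lower (18.8 and 17.1 against 51.2 to 351).

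**Figure D5:**
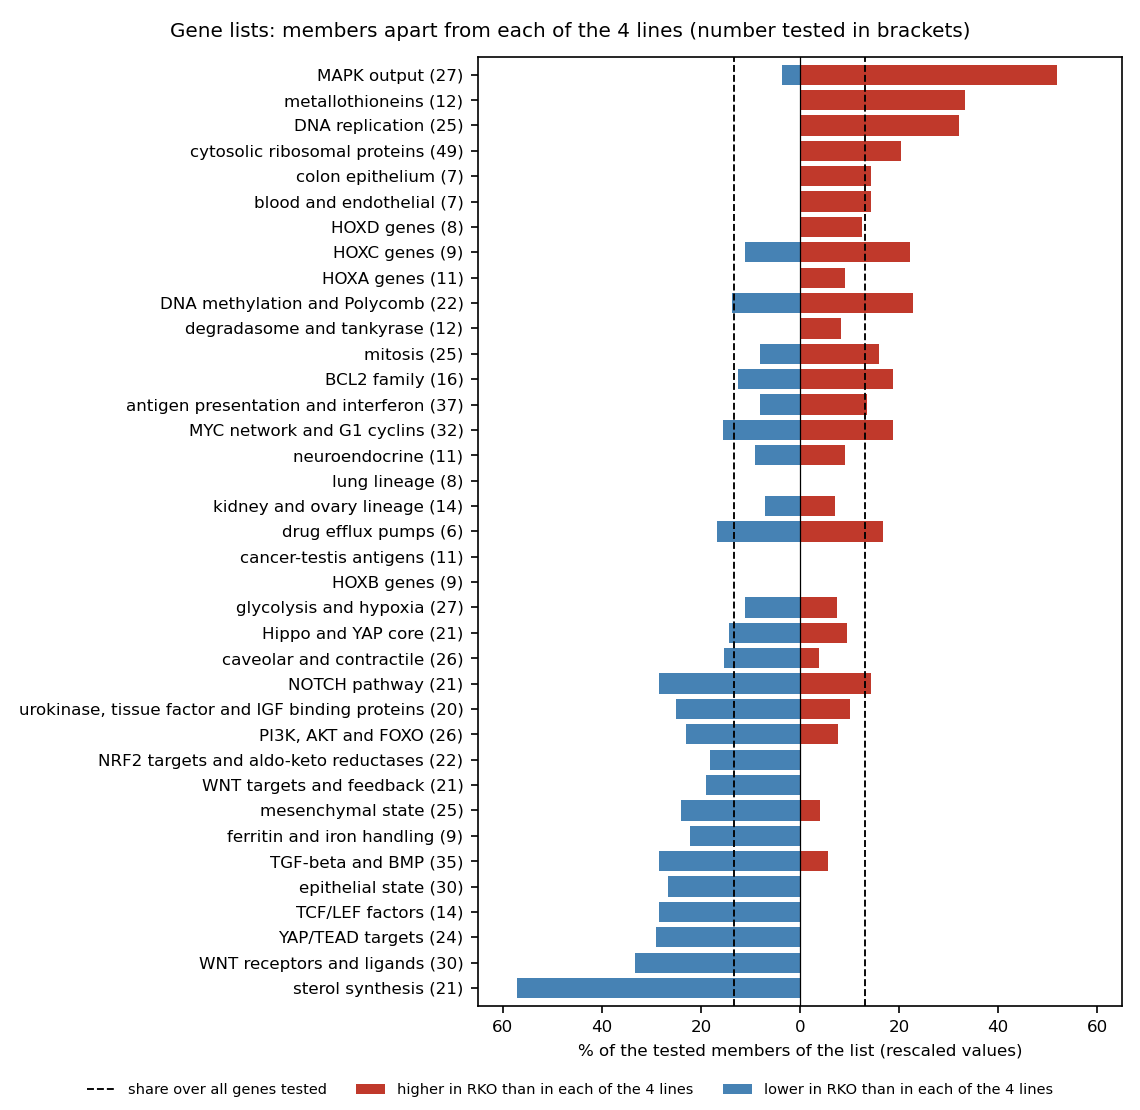
Bars give, for each list shown (at least 5 tested members), the percent of members higher (red, right) or lower (blue, left) in RKO than in each of the 4 lines on rescaled values, and dashed lines mark the shares over all genes tested (13.2% and 13.3%). MAPK output has the longest bar to the right (14 of 27) and sterol synthesis the longest to the left (12 of 21).

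The counts of the remaining lists follow. Members higher and lower than each line were 1 and 4 of 26 caveolar and contractile genes, 2 and 5 of 20 urokinase, tissue factor and IGF binding protein genes, none and 4 of 22 NRF2 targets, none and 2 of 9 ferritin and iron genes, and 2 and 3 of 27 glycolysis and hypoxia genes. Among cytosolic ribosomal proteins 10 of 49 were higher and none lower after rescaling, but 5 and 5 on deposited values, so that their direction depends on the scale. Metallothioneins gave 4 higher and none lower of 12 (2 and none on deposited values), and drug efflux pumps 1 and 1 of 6. HOX genes gave 1 of 11 (HOXA), none of 9 (HOXB), 2 of 9 (HOXC) and 1 of 8 (HOXD) higher, with HOXC13 lower. Lineage lists gave 1 and 1 of 14 kidney and ovary genes, none of 8 lung genes, 1 and 1 of 11 neuroendocrine genes and none of 11 tested cancer-testis antigens. A colon list of 22 genes had 7 tested members and 9 at 0 in both RKO libraries.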

How the data were processed

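Poly(A) RNA of 5 cell lines was sequenced, and SOAPaligner/SOAP2 (its version not given in the sources used) placed the reads on reference genes of hg19 (GRCh37), allowing 2 mismatches. The deposited RPKM values are normalized by the authors for gene length and mapped reads, 1 value per gene and library. The table has 21610 entries, of which 8 lack a symbol and were dropped (no more than 0.00134% of any library's RPKM), 371 repeated symbols were joined to give 21201, and 776 symbols whose hyphen was written as NA were restored. Absolute depth is unknown, so no counting error was computed. The authors' fold changes, probabilities and p-values for treatment, and their protein tables, were not used.

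The 10 DMSO libraries were fitted on log2(RPKM + 0.5) in R 4.3.3 with limma 3.58.1 and statmod 1.5.0, using a mean per line, a trend in the prior variance, robust estimation and two-sided tests. Benjamini-Hochberg adjustment ran over the 14101 genes of each comparison, at 0.05. The fit was repeated on rescaled values and on the 10 G007-LK libraries, and was tested on simulated data with known changes. Counts and figures were made in Python 3.11.15 (pandas 2.3.3, numpy 2.4.6, matplotlib 3.10.9). Promoters came from RefSeq (15252 symbols matched), and positions from GENCODE.

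The comparison, the 39 gene lists and the thresholds were chosen with earlier results of these data known, and the lists were written from general knowledge. Named genes are those of the proteins that the study assayed, the 15 on each side farthest from the nearest line (RKO, or each other line, at 5 RPKM or more), up to 5 members of each list in each direction that were apart from each line, defining markers, and the most abundant silent genes. HLTF, CHFR, SGCE, NNT, JUP, BNIP3 and further list members were added after their values were seen, and not every gene under the rule is printed. Some genes and the lists that rest on them are not reported here.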

Additional observations from a re-analysis of the deposited data

How the results depend on the processing

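Counts here start from deposited values. By median ratio, 5490 genes were higher than the mean of the 4 lines in place of 3309, 5439 higher and 6514 lower than OVCAR-4 in place of 1836 and 10412, 1857 higher than each line in place of 794, and 415 higher by 2-fold in place of 259. Quantile normalization gave 6440 higher than the mean, 6871 higher than UO-31, 6481 higher and 5473 lower than OVCAR-4, 2244 higher and 1396 lower than each line, and 484 and 397 by 2-fold. Equal sums gave 5753, 5852 and 6046 (OVCAR-4), 1907 and, by 2-fold, 416. Genes lower by 2-fold numbered 928 with log2(RPKM + 0.1), 1197 without COLO 320DM (3827 lower than each) and 934 without ABC-1. Without OVCAR-4, 1605 were higher than each line and 402 by 2-fold. Silent genes numbered 223 below 0.5 RPKM and 38 with the others at 5 RPKM or more, and genes found in RKO alone 39 and 4. Leaving out 1 library gave 2864 to 3623 genes higher and 8101 to 8919 lower than the mean, 4268 to 5184 and 5373 to 6274 (COLO 320DM), 4448 to 5159 and 5350 to 6021 (ABC-1), 3650 to 4289 and 6310 to 7067 (UO-31), 1651 to 1937 and 10035 to 10562 (OVCAR-4), 672 to 901 and 1962 to 2492 (each line), 243 to 264 and 583 to 618 (2-fold), 144 to 151 silent and 11 to 13 found alone. The last 2 ranges, and the rescaled silent sets, were chosen after seeing the data. The differences to the mean that changed sign, on the log2 scale, were TNKS 0.29, GSK3B 0.037 and AKT1 0.24 by median ratio, CCND1 0.060, TNKS 0.38, GSK3B 0.077, WWTR1 0.037 and AKT1 0.35 by quantile, TNKS 0.34, GSK3B 0.093, WWTR1 0.040 and AKT1 0.30 by equal sums, CCND1 0.28 in the G007-LK libraries, CDKN1A -0.21 without COLO 320DM, MYC -0.39 and CTNNB1 -0.063 without ABC-1, WWTR1 0.082 without UO-31, and CCND1 0.16, CYR61 0.37 and AKT1 0.40 without OVCAR-4. Listed are changes of sign from deposited values where the main or the other fit had an adjusted p-value under 0.05 (limma). Changes of sign that passed in neither fit were not listed, and 137 genes were checked. Libraries shared a replicate number but no stated pairing (correlations of deviations -0.0346 to 0.285), and with the replicate block 825 genes were higher and 2340 lower than each line. The cause of these shifts was not tested.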
